A study of Homo sapiens with 36 samples.

Results

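The ABC transporters (ATP-binding cassette proteins) are examined here as a gene family in HMC3 cells exposed to PFOS. Members were all gene symbols in the deposited RNA count table made of ABC, a subfamily letter from A to G and a number. The rule found 46 members among 25344 genes. Of these, 42 had at least 1 count in some library, and 21 had enough counts to be tested. HMC3 is an established human cell line sold as microglia, and PFOS (perfluorooctane sulfonate) is a persistent fluorinated surfactant. All cells came from this 1 line and grew in high-glucose medium with fetal bovine serum, vehicle controls included. The 6 groups of 3 libraries were treated for 24 h with vehicle, with PFOS at 25 µM or with PFOS at 50 µM, and either taken then or kept for another 24 h in fresh medium free of PFOS, called recovery here. The labels call the replicates biological without saying whether each was a culture of its own. P-values therefore speak of the spread among libraries, which may be technical.

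ABC proteins bind and split ATP on paired nucleotide-binding domains and, in most subfamilies, use it to move lipids, drugs, peptides or metal-bound compounds across a membrane. Subfamily A mostly exports lipids, B and C hold the classic drug efflux pumps along with mitochondrial and lysosomal carriers, D serves peroxisomes and lysosomes, and G holds a drug pump and sterol carriers. Proteins of subfamilies E and F lack membrane-spanning domains and act on ribosomes and translation. In the brain, ABCA1 loads cholesterol onto lipoproteins secreted by glia, and ABCB1 and ABCG2 are best known as efflux pumps of the blood-brain barrier.

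The promoters of 3 members that moved at 50 µM are shown because they differ in the letters of common promoter elements. Each line gives the 250 bases before a transcription start in RefSeq on GRCh38.p14, in the direction of transcription. Capitals mark matches to 7 sets of letters searched on both strands: the LXR element (AGGTNA and NGGTCA with 4 bases between them), the E-box CACGTG, the GC box GGGCGG, the CCAAT box, the TATA box TATAAA, the cyclic AMP element TGACGTCA and the amino acid response element TGATGNAA. None of these sets of letters contains another, and they were chosen after the ABCA1 sequence had been seen. The windows lie on chromosome 9 for ABCA1, on chromosome 7 for the downstream of the 2 ABCB1 starts, and on chromosome 1 for ABCD3.
ABCA1, chr9:104928156-104928405, minus strand: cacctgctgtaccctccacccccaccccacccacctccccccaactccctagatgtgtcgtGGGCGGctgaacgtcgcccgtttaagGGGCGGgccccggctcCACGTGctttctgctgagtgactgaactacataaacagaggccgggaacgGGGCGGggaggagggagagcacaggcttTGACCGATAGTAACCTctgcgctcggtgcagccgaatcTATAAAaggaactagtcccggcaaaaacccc
ABCB1, chr7:87600885-87601134, minus strand: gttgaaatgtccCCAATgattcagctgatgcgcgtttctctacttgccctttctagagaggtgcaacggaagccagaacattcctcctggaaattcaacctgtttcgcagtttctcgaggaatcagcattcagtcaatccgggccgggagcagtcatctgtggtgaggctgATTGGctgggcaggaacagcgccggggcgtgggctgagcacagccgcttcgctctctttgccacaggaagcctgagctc
ABCD3, chr1:94418139-94418388, plus strand: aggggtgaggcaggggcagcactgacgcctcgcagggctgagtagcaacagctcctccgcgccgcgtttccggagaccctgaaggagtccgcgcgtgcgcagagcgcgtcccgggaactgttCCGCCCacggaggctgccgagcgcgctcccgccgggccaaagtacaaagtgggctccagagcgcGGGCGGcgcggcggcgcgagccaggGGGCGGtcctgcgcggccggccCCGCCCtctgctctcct
The ABCA1 window held the LXR letters on the strand opposite to transcription, 69 bases before the start, read as AGGTTACTATCGGTCA. LXR is the oxysterol receptor under which ABCA1 is classically induced. These letters were present in 28 of 35116 RefSeq promoter windows of this length (0.0797%), and in 1 of the 27 windows of tested members. As the letters were chosen with the ABCA1 sequence known, these shares are not a test of its match. The same ABCA1 window held 1 E-box, 3 GC boxes and TATAAA 31 bases before the start. E-box letters were present in 6.34% of all windows, GC box letters in 42.6% and TATAAA in 10.7%. The ABCB1 window held CCAAT 238 bases before the start and its inverse 79 bases before it, letters found in 32% of all windows. The window of the upstream ABCB1 start, chr7:87713296-87713545, held none of the 7. The ABCD3 window held 4 GC boxes. Of the 46 members, 35 had a promoter entry, as did 18 of the 21 tested members. These matches are letters in a window, and binding was not tested.

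Detection divided the family. In the plot of total counts by subfamily, tested members ranged from 265 counts for ABCA7 to 8241 for ABCE1 over all 18 libraries. The lowest total count was 582233 in a library and the highest 4346627, and a gene was tested when it reached about 7.44 CPM (counts scaled to a common library size) in at least 3 libraries. Subfamily A had 5 tested of 12 members, B 5 of 9, C 4 of 12, D 2 of 4, and G 1 of 5. The soluble members, ABCE1 and the 3 members of subfamily F, were all tested. No count was found for ABCA6, ABCA13, ABCB11, the bile salt export pump of liver, and ABCC13, which RefSeq lists as a transcribed pseudogene. With 33665759 counts in all, 0 counts allow up to 3 counts, or 0.0891 CPM, which covers counting error only.

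**Figure D1:**
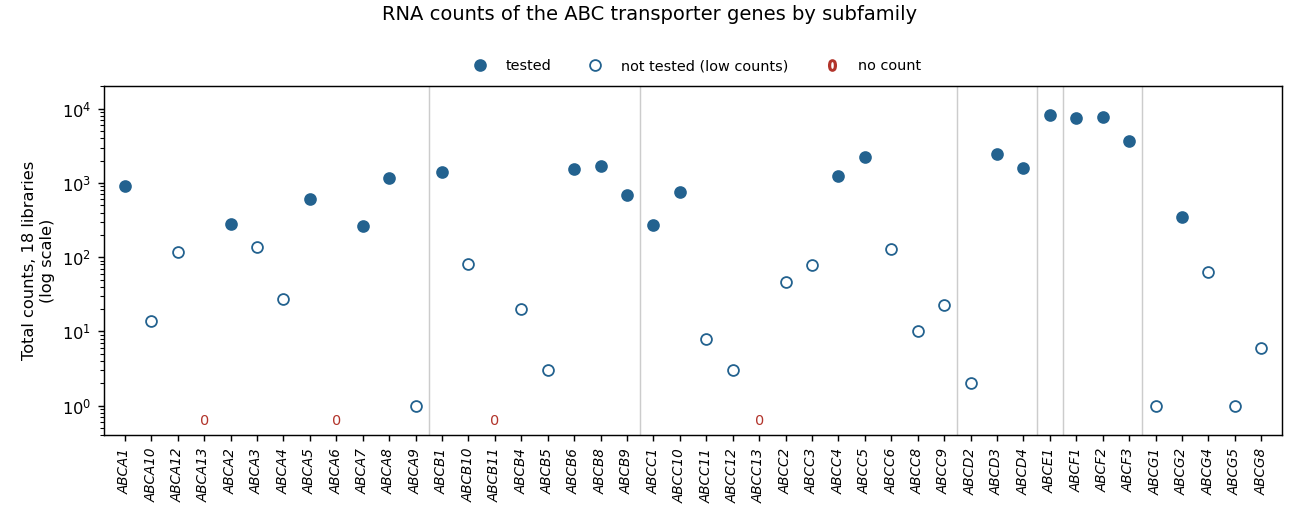
Total counts of 44 of the 46 members over the 18 libraries, on a log scale, grouped by subfamily. Filled points are 20 tested members, open points 20 members with too few counts, and a red 0 marks the 4 members with none. The members of subfamilies E and F lie highest, from 3668 counts for ABCF3 to 8241 for ABCE1, with counts not scaled by gene length.

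The remaining 21 untested members had between 1 and 139 counts in all 18 libraries together. ABCA9, ABCG1 and ABCG5 had 1 count each, ABCD2 had 2, ABCB5 and ABCC12 had 3, ABCG8 had 6, ABCC11 had 8 and ABCC8 had 10. ABCG1, which passes cholesterol to HDL, and ABCG5 and ABCG8, the paired sterol pump of gut and liver, were therefore near the limit of detection. ABCA10 had 14 counts, ABCB4 had 20, ABCC9 had 23, ABCA4 had 27, ABCC2 had 46, ABCG4 had 64, ABCC3 had 78 and ABCB10 had 80. ABCA12 had 117 counts, ABCC6 had 128 and ABCA3, the surfactant lipid carrier of lung, had 139. The table also lists pseudogene copies of ABCC6, so how its reads were divided is uncertain.

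Values below are CPM after TMM scaling of library sizes, so they compare 1 gene across libraries and not genes with each other. A member is called when edgeR's quasi-likelihood test over all 9847 genes gives a Benjamini-Hochberg adjusted p under 0.05, and each log2 change carries its standard error (SE). At 50 µM and 24 h, 5 of 21 tested members were called (23.8%), 1 higher and 4 lower, against 18.8% of all genes tested (9.18% higher and 9.59% lower). At 25 µM and 24 h, 2 of 21 were called (9.52%), 1 in each direction, against 1.24% of all genes (0.782% higher and 0.457% lower). The median log2 change of the tested members was 0.13 at 25 µM and -0.07 at 50 µM, against 0.00 and 0.01 over all genes. In the plot of log2 changes, most members lie near 0 at 24 h, with ABCA1, ABCA8 and ABCB1 farthest from it at 50 µM. These are bulk libraries, in which fewer cells of a kind and less RNA per cell cannot be told apart.

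**Figure D2:**
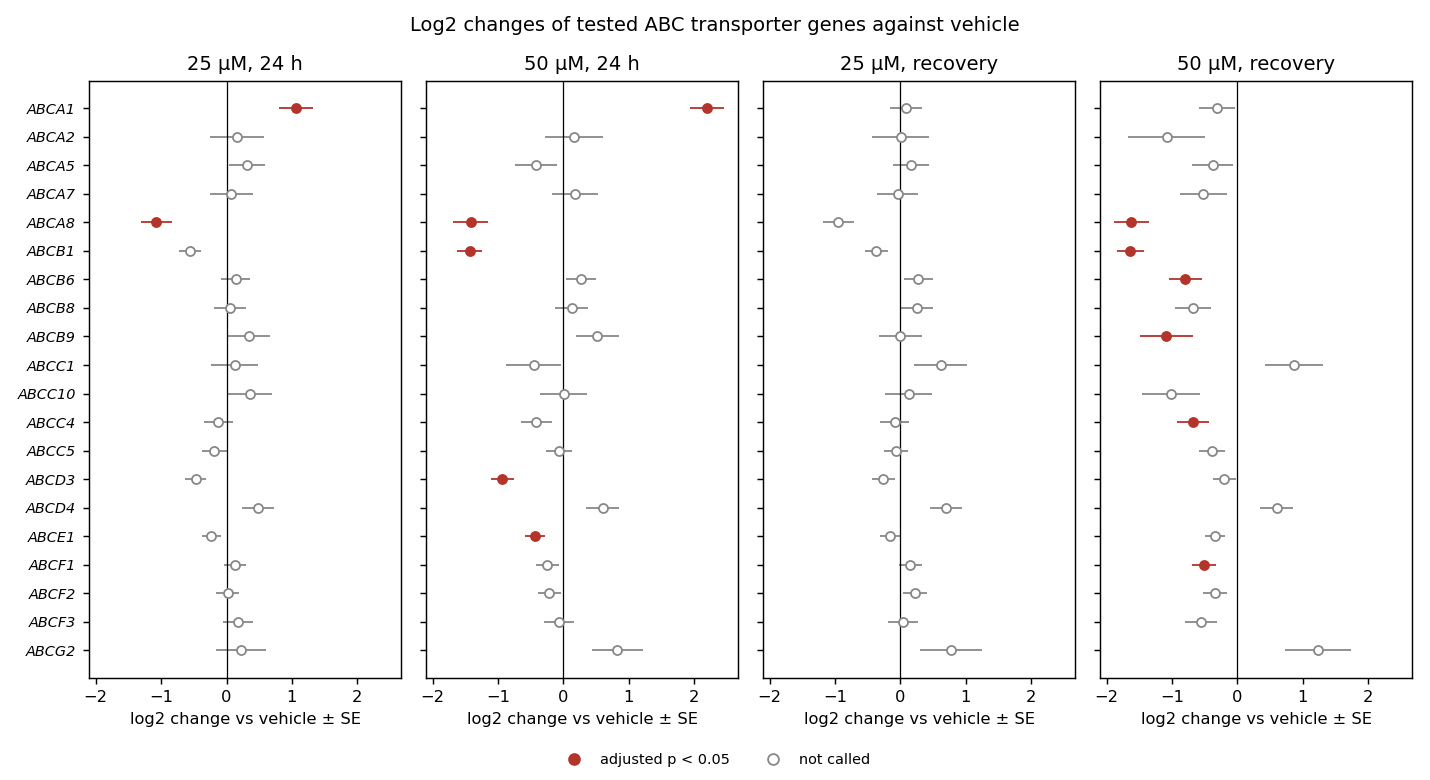
Log2 change against vehicle of 20 tested members in 4 comparisons, with bars of 1 SE. Red points are members called at an adjusted p under 0.05 over all genes tested, which number 2, 5, 0 and 6 from left to right. ABCA1 reaches 2.20 at 50 µM and 24 h, and lies at -0.31 after recovery.

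ABCA1, the exporter of cholesterol and phospholipid to apolipoprotein A-I (chromosome 9, 104781006 to 104928155), was the 1 member called higher against vehicle. Vehicle libraries at 24 h gave 10.6, 10.8 and 14.4 CPM. At 25 µM the libraries gave 22.3, 24.5 and 30.8 CPM, and at 50 µM 62.1, 46.5 and 60.7 CPM. The 3 groups did not overlap and followed the dose. ABCA1 rose at 25 µM by 1.06 ± 0.27 on the log2 scale (SE, edgeR adjusted p = 0.0498) and at 50 µM by 2.20 ± 0.26 (adjusted p = 2.91e-06). The step from 25 to 50 µM was 1.14 ± 0.24 (adjusted p = 0.00465), in a comparison where 2 of 21 members (9.52%) and 7.4% of all genes (3.79% higher, 3.62% lower) were called. The call at 25 µM was lost when any 1 of its 6 libraries was left out, with adjusted p between 0.094 and 0.3.

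After recovery the same gene gave no ordered pattern. Vehicle libraries gave 31.4, 24.1 and 28.8 CPM, 25 µM libraries 16.8, 31.7 and 34.6 CPM, and 50 µM libraries 30.2, 14.6 and 23.6 CPM. All 3 groups overlapped. The log2 change against vehicle was 0.08 ± 0.25 at 25 µM (edgeR adjusted p = 0.979) and -0.31 ± 0.28 at 50 µM (adjusted p = 0.43). The recovery vehicle libraries all lay above the 24 h vehicle libraries, by 1.16 ± 0.26 (adjusted p = 0.0371). This was the 1 member of 21 (4.76%) called between the vehicle groups, where 0.975% of all genes were called (0.335% higher and 0.64% lower). That call was lost without any 1 of the 6 vehicle libraries, with adjusted p from 0.0712 to 0.276. The 50 µM effect after recovery was lower than the effect at 24 h by -2.51 ± 0.38 (adjusted p = 0.000221), a difference that takes in the shift of the vehicle. In this comparison 4 of 21 members (19%) and 19.1% of all genes were called.

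**Figure D3:**
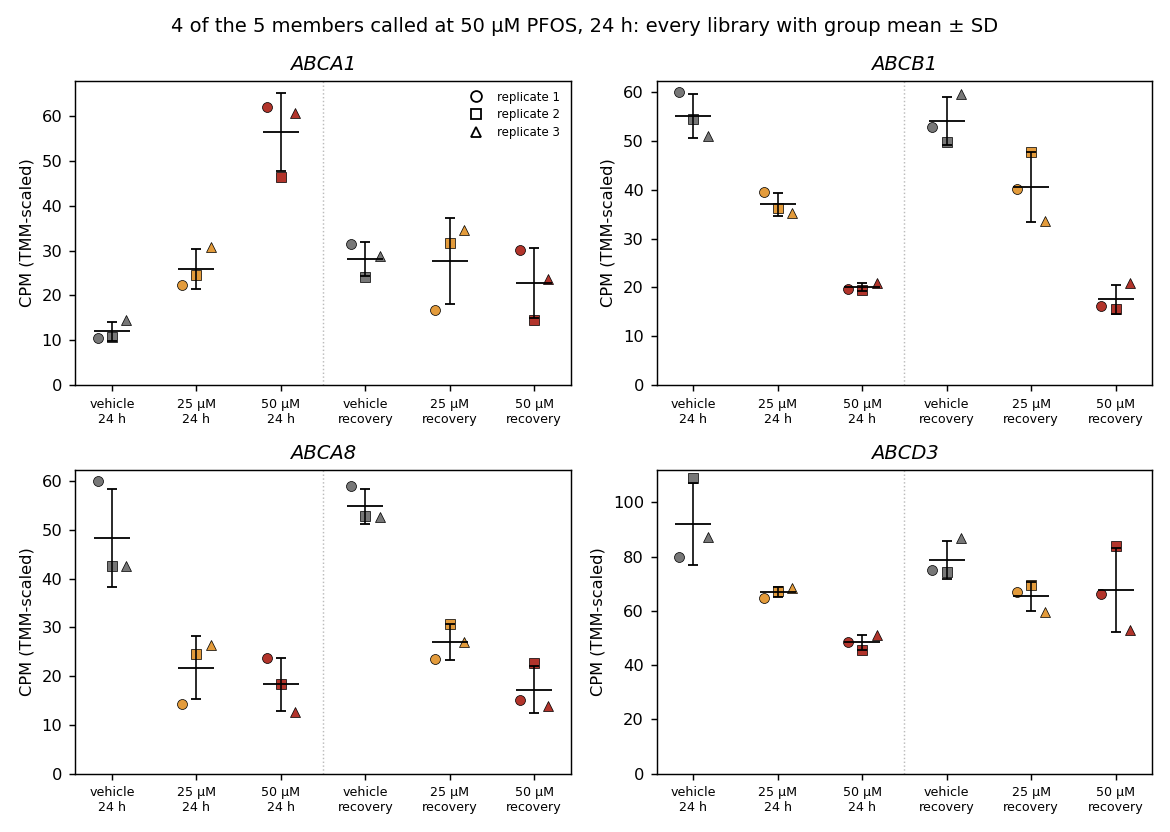
CPM of ABCA1, ABCB1, ABCA8 and ABCD3 in every library of the 6 groups, with the group mean as a horizontal line and bars of 1 SD (n = 3). ABCA1 is ordered by dose at 24 h and overlaps between groups after recovery, and the 50 µM libraries of ABCB1 and ABCA8 lie below their vehicle libraries at both times.

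ABCB1, also called P-glycoprotein or MDR1, pumps a broad range of hydrophobic drugs out of cells (chromosome 7, 87503017 to 87713295). It gave 60.0, 54.4 and 50.9 CPM in vehicle libraries at 24 h, 39.6, 36.2 and 35.2 CPM at 25 µM, and 19.7, 19.5 and 20.9 CPM at 50 µM. The 3 groups did not overlap and fell in order of dose. ABCB1 fell at 50 µM, its log2 change being -1.43 ± 0.19 (SE, edgeR adjusted p = 1.36e-05), and fell from 25 to 50 µM, with a change of -0.87 ± 0.20 (adjusted p = 0.0076). At 25 µM the change was -0.56 ± 0.17 and did not pass (adjusted p = 0.149).

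The lower ABCB1 level was also found after recovery. Recovery vehicle libraries gave 52.9, 49.8 and 59.5 CPM, 25 µM libraries 40.2, 47.8 and 33.5 CPM, and 50 µM libraries 16.3, 15.5 and 20.8 CPM. The 50 µM libraries lay below the other 6 recovery libraries. The log2 change at 50 µM was -1.64 ± 0.21 (edgeR adjusted p = 2.09e-05), and -1.27 ± 0.22 against 25 µM (adjusted p = 0.000616). The effects at the 2 times differed by -0.20 ± 0.29 (adjusted p = 0.657), so a difference between them was not found within about this error. ABCB1 was called at 50 µM against vehicle at both times under all settings and left-out libraries tried.

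ABCA8, a full-length A-subfamily protein linked to cholesterol export (chromosome 17, 68867289 to 68955392), was lower at both doses. Vehicle libraries at 24 h gave 60.0, 42.5 and 42.7 CPM, 25 µM libraries 14.4, 24.5 and 26.4 CPM, and 50 µM libraries 23.8, 18.4 and 12.7 CPM. Treated and vehicle libraries did not overlap, while the 2 doses did. ABCA8 fell at 25 µM, at -1.08 ± 0.23 on the log2 scale (SE, edgeR adjusted p = 0.0215) and at 50 µM, at -1.42 ± 0.26 (adjusted p = 0.000516). The doses differed by -0.35 ± 0.28 (adjusted p = 0.514). The 25 µM call was lost without any 1 vehicle library (adjusted p 0.106, 0.051 and 0.0537 without replicates 1, 2 and 3) and without 25 µM replicate 1 (0.138) or 2 (0.0703).

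After recovery, ABCA8 gave 59.0, 52.9 and 52.6 CPM in vehicle, 23.5, 30.8 and 27.01 CPM at 25 µM, and 15.1, 22.8 and 13.9 CPM at 50 µM. None of these 3 groups overlapped, and ABCA8 had 10 to 25 counts in each 50 µM library. The fall at 50 µM was called, at -1.62 ± 0.27 on the log2 scale (edgeR adjusted p = 0.000156). At 25 µM the change of -0.95 ± 0.24 did not pass (adjusted p = 0.523). In that comparison 0 of 21 members and 0% of all genes were called by edgeR, with 3 members and 693 genes at an unadjusted p under 0.05, and DESeq2 called 0 members and 1 gene. The 50 µM effects at the 2 times differed by -0.20 ± 0.38 (adjusted p = 0.754). ABCA8 lies in a cluster with ABCA5, ABCA6, ABCA9 and ABCA10 on chromosome 17, of which only ABCA5 was also tested. ABCA5, a lysosomal protein, had group means of 16.3 ± 3.89 CPM in vehicle and 10.9 ± 4.80 CPM at 50 µM at 24 h (SD, n = 3), and was not called in any comparison.

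ABCD3, the peroxisomal carrier PMP70 for long branched fatty acids and bile acid precursors (chromosome 1, 94385131 to 94518663), was lower at 50 µM and 24 h. Libraries gave 79.97, 109 and 87.2 CPM in vehicle, 64.8, 67.2 and 68.6 CPM at 25 µM, and 48.6, 45.4 and 51.0 CPM at 50 µM. The 3 groups were ordered by dose without overlap. The log2 change was -0.93 ± 0.18 at 50 µM (SE, edgeR adjusted p = 0.000656) and -0.47 ± 0.16 at 25 µM, which did not pass (adjusted p = 0.27). After recovery, vehicle libraries gave 75.1, 74.4 and 87.0 CPM and 50 µM libraries 66.3, 83.8 and 52.8 CPM, and the groups overlapped. That change was -0.20 ± 0.17 (adjusted p = 0.405). The 50 µM effect after recovery was higher than at 24 h by 0.73 ± 0.25 (adjusted p = 0.0437), a call lost under 12 of 18 alternatives, among them leaving out 50 µM recovery replicate 2 (adjusted p = 0.151).

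The other tested D member, ABCD4, moves cobalamin (vitamin B12) out of lysosomes. It had 37.6, 40.4 and 34.5 CPM in vehicle at 24 h, 43.2, 49.6 and 63.5 CPM at 25 µM, and 45.5, 41.1 and 78.0 CPM at 50 µM. Treated libraries lay above vehicle libraries in both comparisons at 24 h and in both after recovery, and none passed by edgeR on all libraries. At 50 µM and 24 h it was called by limma voom with sample weights and by edgeR on the libraries of that comparison alone. Its log2 changes ran from 0.48 to 0.69, and the lowest adjusted p in any comparison was 0.0877. Groups did not overlap in 22.9% of all genes at 25 µM and in 41.4% at 50 µM at 24 h, and in 13.8% and 31.3% after recovery. Of the 21 members this held for 6, 7, 4 and 6.

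ABCE1, the factor that splits ribosomes after termination (chromosome 4, 145098311 to 145129524), gave 321, 318 and 288 CPM in vehicle at 24 h. At 25 µM it gave 257, 255 and 275 CPM, and at 50 µM 240, 228 and 216 CPM, again without overlap between doses. The fall at 50 µM was small, at -0.44 ± 0.15 on the log2 scale (SE, edgeR adjusted p = 0.0419). It was lost when any 1 of its 6 libraries was left out, with adjusted p from 0.0608 to 0.143. After recovery, vehicle libraries gave 211, 236 and 272 CPM and 50 µM libraries 164, 233 and 168 CPM, which overlapped (-0.34 ± 0.15, adjusted p = 0.0935).

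After recovery from 50 µM, 6 of 21 members were called (28.6%), all lower, against 28.4% of all genes. Of all genes, 10.7% were called lower and 17.7% higher. The member median was -0.51 on the log2 scale, against -0.05 over all genes, and 4 of 21 members had a positive change. Beside ABCA8 and ABCB1, the members called were ABCB6, ABCB9, ABCC4 and ABCF1. Against 25 µM after recovery, 5 members were called lower (23.8%), where 22.1% of all genes were called, 7.38% lower and 14.7% higher: ABCB1, ABCB6, ABCB8, ABCF1 and ABCF2. The 3 libraries of 50 µM recovery stood apart from the rest. Cytosolic ribosomal protein genes, 87 in all, took 2.96%, 7.66% and 5.08% of their counts, against 1.22% to 2.44% in the other 15 libraries. Correlations between these replicates were 0.849 to 0.937, against at least 0.951 within other groups. The members together took 0.117%, 0.0796% and 0.0988% of counts in these libraries, against 0.113% to 0.153% elsewhere. Across 9138 genes, the log2 change at 50 µM after recovery had a Spearman rho of -0.304 with the genomic span of the gene. The tested members had a median span of 56505 bp, against 32278.5 bp over these genes. The part of these differences in the results after recovery was not tested. Replicate 2, the library with the highest ribosomal share, was left out in turn. Without it the member median against vehicle was -0.36, against -0.03 over all genes, with 4 of 21 members positive, and rho was -0.353 across 9305 genes. Then 15.9% of all genes were called, 4.98% lower.

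ABCB6, a porphyrin carrier of mitochondrial and other membranes (chromosome 2, 219209772 to 219218958), gave 42.1, 50.6 and 45.3 CPM in recovery vehicle, 41.9, 63.4 and 57.3 CPM at 25 µM, and 36.0, 15.5 and 30.6 CPM at 50 µM. The 50 µM libraries lay below the other 6, with replicate 2 lowest. The log2 change was -0.80 ± 0.26 against vehicle (SE, edgeR adjusted p = 0.0242) and -1.07 ± 0.26 against 25 µM (adjusted p = 0.00599). Without 50 µM replicate 2 these were -0.48 (adjusted p = 0.2) and -0.76 (adjusted p = 0.0516). Without 25 µM replicate 2 the second had an adjusted p of 0.0644, and without vehicle replicate 2 the first had 0.0859. ABCB8, an inner mitochondrial membrane protein tied to iron export, gave 63.6, 44.0 and 49.9 CPM in vehicle, 62.0, 69.0 and 49.7 CPM at 25 µM, and 41.9, 15.5 and 43.1 CPM at 50 µM. Against vehicle it was not called, at -0.67 ± 0.28 (adjusted p = 0.0715), and at -0.28 without replicate 2 (adjusted p = 0.475). It was called by edgeR without the low-count filter, and without 50 µM replicate 1 or 3. Against 25 µM its change of -0.92 ± 0.28 (adjusted p = 0.0227) became -0.54 (adjusted p = 0.168) without 50 µM replicate 2 and -0.77 (adjusted p = 0.148) without 25 µM replicate 2.

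ABCB9, a lysosomal peptide carrier related to the TAP proteins, gave 26.0, 19.4 and 19.2 CPM in recovery vehicle and 19.8, 1.82 and 9.72 CPM at 50 µM. Replicate 2 was again lowest, with 2 counts, and replicate 1 lay within the vehicle range. The log2 change was -1.09 ± 0.41 (SE, edgeR adjusted p = 0.0496), and -0.47 without replicate 2 (adjusted p = 0.377). The call was also lost without 50 µM replicate 3 (adjusted p = 0.103) or any 1 vehicle library (adjusted p from 0.0637 to 0.13). ABCC4, also called MRP4, exports cyclic nucleotides and prostaglandins. It gave 41.4, 34.3 and 55.4 CPM in recovery vehicle and 34.9, 20.95 and 26.4 CPM at 50 µM, and the groups overlapped. Its change of -0.68 ± 0.25 (adjusted p = 0.0444) became -0.49 without 50 µM replicate 2 (adjusted p = 0.236) and -0.46 without vehicle replicate 3 (adjusted p = 0.188). It also did not pass without vehicle replicate 1 (adjusted p = 0.0766) or 50 µM replicate 3 (adjusted p = 0.0978).

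Of the 3 translation factors of subfamily F, only ABCF1 was called against vehicle after recovery by edgeR with all libraries and the low-count filter. ABCF1, which aids translation initiation, gave 222, 179.8 and 225 CPM in vehicle, 218, 266 and 204 CPM at 25 µM, and 180.2, 118 and 140 CPM at 50 µM. ABCF1 at 50 µM overlapped vehicle but not 25 µM. Its log2 change was -0.51 ± 0.18 against vehicle (SE, edgeR adjusted p = 0.0397) and -0.66 ± 0.18 against 25 µM (adjusted p = 0.0141). Without 50 µM replicate 2 these were -0.37 (adjusted p = 0.172) and -0.53 (adjusted p = 0.0679). The first was also lost without vehicle replicate 1 (adjusted p = 0.128), vehicle replicate 3 (0.107) or 50 µM replicate 3 (0.0985), and the second without 25 µM replicate 2 (0.112). ABCF2 gave 239.8, 163 and 188 CPM in vehicle, 230, 250 and 204 CPM at 25 µM and 191, 116 and 161 CPM at 50 µM. Against vehicle the groups overlapped and ABCF2 was not called, at -0.34 ± 0.18 (adjusted p = 0.177), though edgeR called it without 50 µM replicate 1. Against 25 µM the groups did not overlap, and its change of -0.56 ± 0.19 (adjusted p = 0.035) became -0.38 without replicate 2 (adjusted p = 0.19). Leaving out 25 µM replicate 1 (adjusted p = 0.069), 25 µM replicate 2 (0.163) or 50 µM replicate 3 (0.063) also ended the call. ABCF3 gave 95.3, 35.5 and 88.9 CPM at 50 µM. With all libraries and the low-count filter it was called against neither group, at -0.56 ± 0.25 against vehicle (adjusted p = 0.0966). Without replicate 2 that was -0.19 (adjusted p = 0.539). Without the low-count filter, or without 50 µM replicate 1, edgeR called ABCF3 against vehicle.

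**Figure D4:**
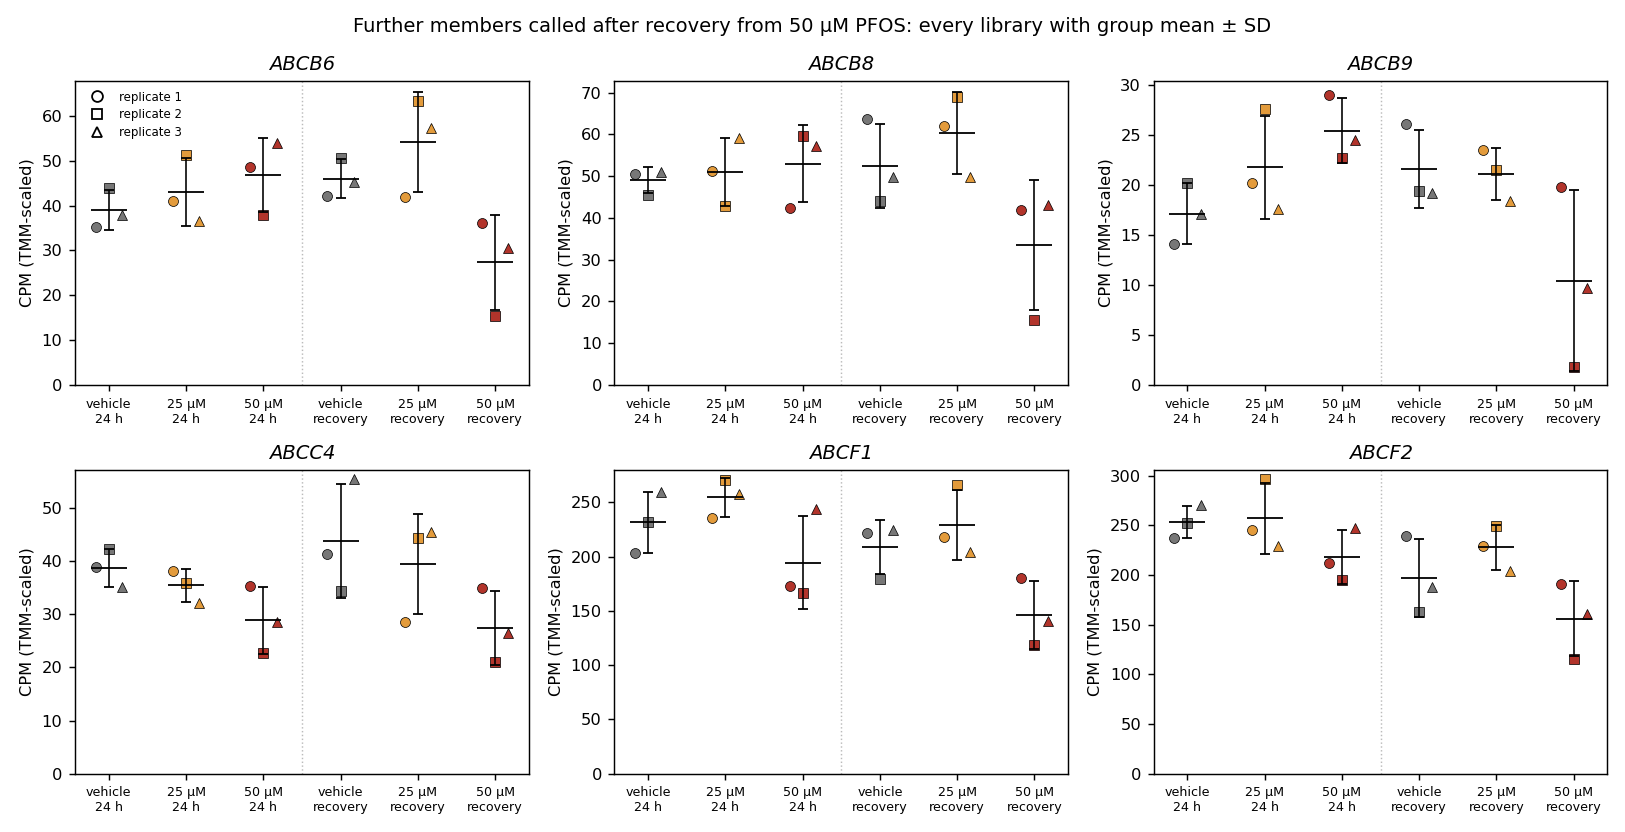
CPM of ABCB6, ABCB8, ABCB9, ABCC4, ABCF1 and ABCF2 in every library of the 6 groups, with the group mean as a horizontal line and bars of 1 SD (n = 3). Replicate 2 of 50 µM recovery (red square) is the lowest library of its group in each of these 6 panels, for example 15.5 CPM for ABCB6 and 1.82 CPM for ABCB9.

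With replicate 2 of 50 µM recovery left out, 3 members were called against vehicle, namely ABCA8 at -1.90 (edgeR adjusted p = 0.000113), ABCB1 at -1.55 (adjusted p = 7.88e-05) and ABCE1 at -0.53 (adjusted p = 0.0102). Against 25 µM only ABCB1 stayed called, at -1.20 (adjusted p = 0.00421). Among the members whose 50 µM effect differed between the times, ABCA1 stayed called at -2.22 (adjusted p = 0.000153). ABCB6 (-1.06 ± 0.35, adjusted p = 0.0371) and ABCB9 (-1.60 ± 0.53, adjusted p = 0.0372) also differed with all libraries. At 24 h, ABCB6 gave 35.3, 44.0 and 38.0 CPM in vehicle and 48.6, 37.8 and 54.0 CPM at 50 µM, and ABCB9 gave 14.1, 20.2 and 17.1 CPM and 29.0, 22.7 and 24.5 CPM. Without replicate 2 they gave -0.74 (adjusted p = 0.116) and -0.98 (adjusted p = 0.115).

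At 25 µM, the effects after recovery and at 24 h were compared in the same way. None of 21 members differed by edgeR, where 0.0203% of all genes did, and 1 member and 458 genes had an unadjusted p under 0.05. DESeq2 called 0 members and 37 genes. The largest member difference in p was ABCA1, at -0.98 ± 0.36 (adjusted p = 0.781).

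Of the 21 tested members, 10 were called in none of the 9 comparisons by edgeR on all libraries with the low-count filter. Other settings called some of them. After recovery from 50 µM, against vehicle, DESeq2 called ABCC10 and ABCG2, and limma voom called ABCC1, ABCC10 and ABCG2. There edgeR without the low-count filter called ABCC10, ABCF3 and ABCG2. Leaving out 50 µM replicate 1 gave ABCC10 and ABCF3, and leaving out vehicle replicate 3 gave ABCG2. At 50 µM and 24 h, voom and edgeR on the comparison's own libraries called ABCG2 beside ABCD4. ABCG2 is the breast cancer resistance protein, a broad efflux pump. It gave 14.1, 10.8 and 10.3 CPM in vehicle at 24 h and 21.7, 13.0 and 23.5 CPM at 50 µM. Recovery vehicle libraries gave 0.766, 2.88 and 9.61 CPM and 50 µM libraries 11.6, 10.0 and 11.1 CPM. Those vehicle libraries held 1, 11 and 21 counts. They lay below the 24 h vehicle libraries, at -1.28 ± 0.44 (SE), which was not called (edgeR adjusted p = 0.185). The log2 changes of ABCG2 at 50 µM were 0.82 ± 0.39 at 24 h (adjusted p = 0.144) and 1.23 ± 0.51 after recovery (adjusted p = 0.0705). The second takes in the lower vehicle. Without 50 µM recovery replicate 2 the second was 1.30 (adjusted p = 0.128).

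Among the MRP proteins of subfamily C, ABCC5, a carrier of cyclic nucleotides, gave 82.3, 52.6 and 53.9 CPM in vehicle at 24 h and 63.1, 60.6 and 51.5 CPM at 50 µM. Its changes against vehicle lay between -0.39 and -0.07. ABCC10 ranged from -1.02 to 0.36 against vehicle and gave 22.1, 0.911 and 11.1 CPM in the 50 µM recovery libraries (edgeR adjusted p = 0.0888). Without replicate 2 that change of -1.02 was -0.34 (adjusted p = 0.534). ABCC1, the founding MRP, lay at 6.14 to 10.5 CPM in group means, and its highest change against vehicle was 0.86 after recovery from 50 µM (edgeR adjusted p = 0.146), or 1.11 without replicate 2 (adjusted p = 0.128). Its 50 µM effects at the 2 times differed by 1.32 ± 0.61 (adjusted p = 0.131), a difference voom called. ABCA2, a lysosomal lipid carrier, and ABCA7, a phospholipid carrier linked by genetics to Alzheimer's disease, had group means from 4.08 to 10.8 CPM and from 6.76 to 10.4 CPM. Their lowest adjusted p values against vehicle were 0.172 and 0.301.

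Without the filter on low counts, 17953 genes were fitted. ABCC3, the MRP of bile acid conjugates, was then called at 50 µM and 24 h, at 1.96 on the log2 scale (edgeR adjusted p = 0.0351), from 78 counts in all libraries. At this depth such a fold rests on a few counts per library.

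The 6 lists of genes that work beside the members were read for 50 µM and 24 h, and none of their tested genes was called at 25 µM at either time. At 50 µM and 24 h their counts are to be read beside all genes tested, of which 18.8% were called, 9.18% higher and 9.59% lower. Among 12 tested genes of sterol efflux and LXR signalling, 2 rose and 1 fell, with a median log2 change of 0.22. PLTP, the phospholipid transfer protein, rose by 1.04 ± 0.23 (SE, edgeR adjusted p = 0.00318), and LIPA, the lysosomal acid lipase, had -0.67 ± 0.19 (adjusted p = 0.0178). The LXR genes themselves, NR1H2 at 0.53 ± 0.28 (adjusted p = 0.207) and NR1H3 at 0.34 ± 0.41 (adjusted p = 0.614), did not pass. After recovery from 50 µM, 1 of these 12 genes rose and 3 fell, with a median of -0.01, where 28.4% of all genes were called.

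Among 17 tested peroxisome genes, the partners of ABCD3, 2 rose and 1 fell, with a median of 0.11. ACOX3, an oxidase of branched fatty acids, had -0.80 ± 0.23 (SE, edgeR adjusted p = 0.0172). Among 21 genes of mitochondrial heme and iron-sulfur synthesis, 3 rose and 0 fell, with a median of 0.35, led by PPOX at 0.80 ± 0.23 (adjusted p = 0.0193). Of 14 genes of ribosome rescue and GCN signalling, 2 rose and 0 fell, but the median was -0.25, against 0.01 over all genes. PELO, the partner of ABCE1 in splitting stalled ribosomes, rose by 0.98 ± 0.18 (adjusted p = 0.000468). Of 10 tested genes of drug metabolism and its receptors, 0 rose and 2 fell, with a median of -0.03. AHR, the dioxin receptor, had -0.91 ± 0.30 (adjusted p = 0.0337). Of 4 tested ABC genes outside the symbol rule and their partners, 1 rose and 0 fell, with a median of -0.09. TAP2, which together with TAP1 carries peptides for MHC class I, rose by 1.04 ± 0.26 (adjusted p = 0.00677). TAP1 did not pass at 0.23 ± 0.30 (adjusted p = 0.656).

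Cell type markers were read beside these values. Of 13 microglia markers, AIF1, CX3CR1, TYROBP and C1QA had 0 counts in every library, and P2RY12, TMEM119, PTPRC, ITGAM and SPI1 had 8, 1, 2, 1 and 1 counts in all. Their summed level, mostly CD68, was 19.2 to 36.2 CPM in the libraries of vehicle and 25 µM, and 54.7 to 79.5 CPM at 50 µM at both times. Of 7 fibroblast and pericyte markers, COL3A1 had 0 counts. The other 6 summed to 3571 to 3667 CPM in vehicle at 24 h and 1768 to 2020 CPM at 50 µM. After recovery they summed to 2795 to 3521 CPM in vehicle and 2056 to 2604 CPM at 50 µM. Single markers need not follow this sum. Over all libraries COL1A1 ranged from 139 to 1954 CPM and S100A6 from 38.8 to 966 CPM. SLC1A2 of astrocytes, MOG and OLIG2 of oligodendrocytes and PECAM1 of endothelium had 0 counts. Most defining microglia markers were thus absent or near 0 in cells labelled as microglial. The part of these marker shifts in the members' changes was not tested.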

How the data were processed

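Per the file headers, the table deposited by the authors holds raw read counts, 1 row per gene symbol and 1 column for each of 18 RNA-seq libraries, without normalization. Libraries were poly(A)-selected Smart-seq2, per the labels' protocols, a PCR method without molecular identifiers or strand, so counts are not independent molecules. Trimmomatic, STAR and DESeq2 with GRCh38 are named in the submitters' processing notes. Counting tool, annotation and strandedness were not given in the sources used here. Overlapping, antisense and near-identical genes are therefore uncertain. Another 18 libraries, of CUT&Tag, were left out and not analysed here.

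Genes were kept by filterByExpr (minimum count 10, 6 groups), which left 9847 genes with 99.2% of counts, and scaled by TMM. A quasi-likelihood model in edgeR 4.0.16 (R 4.3.3) was fitted to all 18 libraries with 1 mean per group, and 9 contrasts were tested two-sided, adjusted by Benjamini-Hochberg over all genes, at a threshold of 0.05. The median biological coefficient of variation was 16%. The SE is the absolute log2 change from the unshrunken coefficients, divided by the root of F. Printed log2 changes are those of edgeR's test, which are slightly shrunken. Interaction contrasts give the difference of 2 effects. On simulated counts for 50 µM against vehicle at 24 h, 9715 genes were tested. Of 100 genes changed by 1 on the log2 scale 64% were recovered, and of 100 changed by 2, 94%. There were 8 false among 166 calls. The simulation gave all genes 1 common spread and changed genes in 1 group only, so its rates may not hold for these data. Chi-square per degree of freedom between replicates was 1.29 to 21.4, so no libraries were merged.

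Members are named as follows: called members with each library's value in the groups of the comparisons that called them, other tested members with group means, ranges or some libraries' values, untested ones with counts. Counts and medians cover all members, but some single genes are not reported here. Of partner lists, the called gene with the largest change in each direction at 50 µM and 24 h, among those reported here, is named. NR1H2, NR1H3 and TAP1 were added outside that rule. The members, lists and motifs were chosen with earlier results of these data known. Replicate numbers were not shown to pair the libraries. Of 45 same-numbered pairs, 7 had correlated deviations over 0.1, among them 2 of the 3 pairs of 50 µM and vehicle after recovery. Promoters and positions are from RefSeq, GRCh38.p14. Alternatives were RLE scaling, no low-count filter, DESeq2 1.42.0, limma 3.58.1 voom with sample weights, a replicate block, own libraries only, and leaving out each replicate.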

Additional observations from a re-analysis of the deposited data

Results flagged for a closer look

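The 50 µM effect after recovery differed from the 50 µM effect at 24 h for 4 members, by the edgeR interaction test over all genes. ABCA1 had a difference of -2.51 ± 0.38 (SE, adjusted p = 0.000221), with 56.4 ± 8.62 CPM at 50 µM and 11.9 ± 2.16 CPM in vehicle at 24 h (SD, n = 3), and 22.8 ± 7.86 and 28.1 ± 3.70 CPM after recovery. ABCB6 had -1.06 ± 0.35 (adjusted p = 0.0371), ABCB9 had -1.60 ± 0.53 (adjusted p = 0.0372) and ABCD3 had 0.73 ± 0.25 (adjusted p = 0.0437). ABCA1 kept its call under each of 18 other settings and left-out libraries. ABCB6 lost it in 10 of 18, ABCB9 in 11 of 18 and ABCD3 in 12 of 18. Without 50 µM recovery replicate 2, adjusted p was 0.116 for ABCB6, 0.115 for ABCB9 and 0.151 for ABCD3. Dixon's test for an outlying value was not applied to groups of 3 libraries.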

How the results depend on the processing

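The 25 changes called for members were recomputed under 324 combinations of change and setting. Of these, 225 kept their call, 99 lost it and 0 reversed. Calls of ABCA1, ABCA8, ABCB1 and ABCD3 at 50 µM and 24 h, of ABCA8 and ABCB1 after recovery from 50 µM, and of ABCA1 and ABCB1 between the doses at 24 h were kept under every setting run. ABCB1 between the doses after recovery was lost in 1 of 12, with own libraries only (adjusted p = 0.0797). At 25 µM and 24 h, 2 members became 1 with RLE scaling, 4 with voom and 0 to 1 with a replicate left out. After recovery from 50 µM, 6 became 10 without the filter, 2 with own libraries only and 3 to 10 with a replicate left out. Without vehicle replicate 1 or 50 µM replicate 2 it was 3, and without 50 µM replicate 1 it was 10. Between doses at 24 h, 2 became 4 with voom and 4 with own libraries. Between doses after recovery, 5 became 9 without the filter, 9 with voom, 0 with own libraries (of 0 genes called) and 1 to 9 with a replicate left out, being 1 without replicate 2 of either dose. For the difference of 50 µM effects, 4 became 1 with own libraries and 1 to 6 with a replicate left out. The vehicle comparison ranged from 0 to 1. The cause of these shifts was not tested, beyond the fewer samples left in a fit. Over all genes, own libraries gave 881 calls after recovery from 50 µM where the fit of all libraries gave 2800, and voom gave 496 at 25 µM and 24 h against 122. Of the 881, 92.7% were higher, against 62.2% of the 2800. Under the low-count filter, about 7.44 CPM in at least 3 libraries, 25 of the 46 members could not be tested.

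With the replicate number as a block, 2 members called at 25 µM and 24 h became 1, 6 after recovery from 50 µM became 3, and 4 for the difference of 50 µM effects became 2, while other counts stayed within 1.5 times. The numbers name libraries and were not shown to pair them. Deviations of same-numbered libraries correlated at a median of -0.0245 (from -0.338 to 0.394), against a median of -0.00325 between other libraries, and 2 of 18 libraries correlated best with their own number.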
